A study of Mus musculus with 31 samples.

Results

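The axon guidance ligands and receptors are the semaphorins of classes 3 to 7, the plexins and neuropilins that bind them, Slits and their Robo receptors, ephrins and their Eph receptors, and netrins with the receptors Dcc and Unc5. Members were chosen by the gene name that the array files give to a probe. No measured value enters this rule, but it was chosen with earlier results of these data known. The rule found 70 gene names with 101 probes among 34832 names and 55681 probes, and it also took in Unc50 and Unc5cl, which share a name stem with the netrin receptors but are not netrin receptors. A probe was tested when it was well above background on the arrays of all 6 WT eyes, which left 76 probes of 60 member genes out of 25573 probes in all. The other 25 member probes were not tested, and 10 genes had no other probe: Epha1, Epha10, Ntn1, Ntn5, Plxnb3, Sema3c, Sema3d, Sema3e, Unc5cl and Unc5d.

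RNA was measured in E13.5 mouse eyes of normal appearance after surgical removal of their pigmented epithelium. There were 3 WT female eyes (numbered 1, 2 and 4), 3 WT male eyes, 3 eyes of Ftx-/Y males and 11 eyes of Ftx-/- females, with 2 arrays for each Ftx-/- eye and 1 for each other eye, 31 arrays in all. Ftx is an X-linked long non-coding RNA gene within the X-inactivation centre, and its deletion was made in embryonic stem cells of C57BL/6N mice. The targeted allele also lost the microRNAs that lie in an intron of Ftx, so both mutant groups lack these as well, and only mutant eyes without visible defects were taken. The WT groups carry no targeted allele, and the study compared the genotypes in each sex to find what the loss of Ftx changes in the embryonic eye.

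Guidance cues steer growing axons by attraction or repulsion, and they act through receptors on the growth cone. Secreted class 3 semaphorins bind neuropilins, which signal together with plexins, whereas most other semaphorins sit in the membrane and bind plexins directly. Slits bind Robos and mostly repel, netrins attract through Dcc and repel through Unc5 receptors, and ephrins signal to Eph receptors at cell contacts. In the eye, retinal ganglion cell axons leave through the optic disc with the help of netrin and Dcc, Slits and Robos keep them in the fibre layer, and gradients of Eph receptors and ephrins set the map of the retina in the brain. Many of these genes are also used by the lens, the vessels and the mesenchyme around the eye.

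Each probe is a single 60-base oligonucleotide, and several results below turn on which letters it holds. The first 30 bases of the probes of Efna3, Epha8 and Epha4, an ephrin and a pair of Eph receptors among the members that changed most, are shown 5′ to 3′, because each of these genes was read by 1 tested probe.
Efna3: aagaggcaaatatgccccagagagaacaaa
Epha8: tgtggttcccatcctgagtctggaatcact
Epha4: caggctctgaggtttttattttttggcgat
In mm9 the files place the whole probes at chr3:89118981-89119040, chr4:136485335-136485394 and chr1:77364339-77364398, all on the minus strand. The probes of 4 other members hold a long run of alternating T and G, whose bases are in capitals in the 30-base stretches below.
Sema4c: aaTGTGTGTGTGTGTGTGTGTGTGTtgtaa
Ephb3: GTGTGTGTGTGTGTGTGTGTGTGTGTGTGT
Epha5: gaaatTGTGTGTGTGTGTGTGTGTGcgtgc
Sema6d: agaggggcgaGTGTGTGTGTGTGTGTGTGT
These lie at chr1:36605998-36606057 (minus strand), chr16:21223165-21223224 (plus), chr5:84487348-84487407 (minus) and chr2:124491609-124491668 (plus). Another probe of Epha5 and a pair of Efnb2 probes, which gave differing results, have no such run.
Epha5 (second probe): gttcccatctgcatttgtttgtgctttcag
Efnb2 (probe 1): gtcatcggttggctacgttttggttctatg
Efnb2 (probe 2): tggatctggacagttttgtagtctgtagct
They lie at chr5:84483837-84483896, chr8:8618177-8618236 and chr8:8620426-8620485, all on the minus strand. The exon or untranslated part that a probe reads was not analysed here.

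Values are log2 normalized signals of single probes, so a step of 1 is a doubling, and no level is compared between genes. Where a gene had several tested probes, they were ranked by mean signal over the WT eyes only to pick the one called brightest. The median intensity of an array lay between 34.2 and 75, and 48.2% to 70.4% of its probe spots were well above background. Ftx itself, read by probe A_55_P2175002, stood well above background on 3 of 3 arrays in each WT group, on 9 of 22 Ftx-/- arrays and on 0 of 3 Ftx-/Y arrays, with mean log2 signals of 6.54 in WT females, 6.73 in WT males, 4.26 in Ftx-/- females and 4.03 in Ftx-/Y males. A second probe, A_55_P2175007, did so on 2 of the 3 arrays of WT females, on 1 of 22 Ftx-/- arrays and on no array of a male. In addition, 2 probes of Xist and 2 Y-linked genes matched the labelled sexes by their group means. All WT eyes and Ftx-/Y eye 1 shared slide 1. Slide 2 held Ftx-/- eyes 1 to 3 beside Ftx-/Y eyes 2 and 3, slide 3 held Ftx-/- eyes 4 to 7 and slide 4 held Ftx-/- eyes 8 to 11, and slides were also scanned together. No slide held both WT and Ftx-/- females, so in females the genotype and the slide cannot be told apart. No member was saturated, and every tested member had a value in every eye.

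In Ftx-/- females, 15 of the 76 member probes (19.7%) rose and 18 (23.7%) fell against WT females at an adjusted p under 0.05, where 15.4% of all probes rose and 15.3% fell. The rises were in 14 genes and the falls in 18, with Efnb2 in both. The ligands had 4 rises and 12 falls among 35 probes, and the receptors had 10 rises and 6 falls among 40. In this fit the ligand Efna3 fell most, and the rises of the receptor Epha4 and of Sema4c were alike in size (1.29 for both). The order was not fixed: with the slide as a term of the fit Slit3 (-1.16) was below Efna3 (-1.09) and Nrp2 (1.5) above Sema4c (1.26) and Epha4 (1.03), and in several other alternatives Sema4c was above Epha4. Over all members the median log2 fold change was -0.07, and over all probes it was -0.01. By the fold and p limits of the study's methods (over 1.2 or under 0.8, unadjusted p under 0.05), 15 member probes were higher and 21 were lower, against 16% and 14.9% of all probes. For 17 member probes (22.4%) no Ftx-/- eye overlapped any WT female eye, and this held for 18.5% of all probes. The 43 probes that did not pass had log2 fold changes between -0.44 and 0.95. Without WT female eye 1, 2 or 4 the rises numbered 8, 9 and 8, and without eye 1 or 2 the falls numbered 10 and 11. With the slide as a term of the fit, which makes the contrast rest on Ftx-/Y eye 1, the only mutant eye on the slide with WT eyes, no member passed (31 of all probes did), and 32 of the 33 called members kept their sign while 13 moved by over 1.5 times or changed sign. In bulk RNA, fewer cells of a type and less RNA per cell cannot be told apart.

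**Figure D1:**
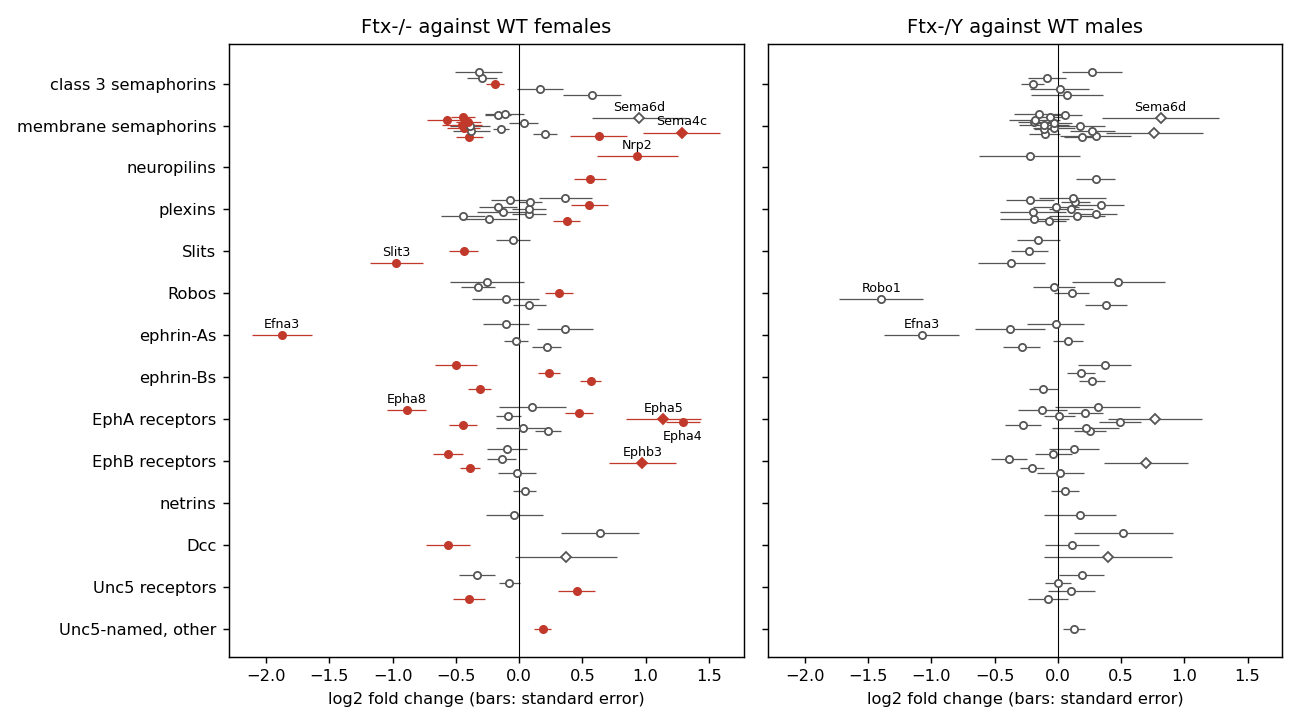
Log2 fold change with its standard error (horizontal axis) for the 76 tested member probes, grouped by family (vertical axis), Ftx-/- against WT females on the left and Ftx-/Y against WT males on the right. Red filled points passed the adjusted threshold in females (15 higher, 18 lower) and diamonds are probes with a simple repeat. Efna3 lies farthest to the left and Epha4 farthest to the right in females.

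Among the ephrin-A ligands, which are tied to the membrane by a lipid anchor and bind EphA receptors, 1 of 5 probes fell and none rose. Efna3 had log2 signals of 9.52, 9.13 and 8.63 in WT female eyes 1, 2 and 4. In the 11 Ftx-/- eyes its lowest, median and highest values were 6.75, 7.19 and 7.68. Every Ftx-/- eye was thus below every WT female eye. The log2 fold change was -1.87 (SE 0.24), a fold of 0.273, with a limma adjusted p of 5.93e-05, and it was -2.0, -1.63 and -2.02 for the Ftx-/- eyes of slides 2, 3 and 4, which share the WT eyes. With the slide as a term of the fit it was -1.09 (adjusted p = 0.302). The other probe of Efna3 was not tested. Efna5, which with Efna2 forms the gradients that guide retinal axons in the midbrain, was higher in all 11 Ftx-/- eyes than the mean of the WT females, by 0.22 (SE 0.11, adjusted p = 0.155). Efna2 differed by -0.10 (SE 0.18, adjusted p = 0.692).

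Of the EphA receptor probes, 3 of 9 rose and 2 fell. Epha4, a receptor that binds ephrins of both classes, had log2 signals of 6.99, 6.70 and 7.23 in WT female eyes 1, 2 and 4. In the Ftx-/- eyes it lay between 8.03 and 8.62 with a median of 8.24. The groups were apart by more than the whole range of either. The log2 fold change was 1.29 (SE 0.13), a fold of 2.45, with an adjusted p of 3.19e-05, and on slides 2, 3 and 4 it was 1.31, 1.21 and 1.36.

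Epha8, a further receptor for ephrin-As, went the other way. Its values were 11.25, 11.24 and 11.11 in the WT female eyes, and 10, 10.24 and 10.81 were the lowest, median and highest of the Ftx-/- eyes. All 11 Ftx-/- eyes were below the WT range, and the log2 fold change was -0.89 (SE 0.15, adjusted p = 0.000478). Epha2, which is known for its role in lens fibre cells, fell by 0.45 on the log2 scale (SE 0.11, adjusted p = 0.00583), also without overlap: it was 11.33, 11.33 and 11.19 in WT females and 10.41 to 11.14 in the Ftx-/- eyes. Epha7, used in retinal mapping, differed by 0.03 (SE 0.21, adjusted p = 0.933).

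Epha5, the receptor of nasal and temporal mapping, was read by 3 tested probes that gave unlike values. The probe with the TG run had 12.23, 11.61 and 11.50 in WT females and 11.76 to 13.62 in Ftx-/- eyes, for a log2 fold change of 1.14 (SE 0.30, adjusted p = 0.00726). The second probe had 11.42, 11.52 and 11.49 in WT females and 11.58 to 12.23 in Ftx-/- eyes, for a log2 fold change of 0.47 (SE 0.11, adjusted p = 0.00392). The third differed by -0.09 (SE 0.10, adjusted p = 0.536). The second probe holds no repeat and rose less than the first, and the third did not pass the test.

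**Figure D2:**
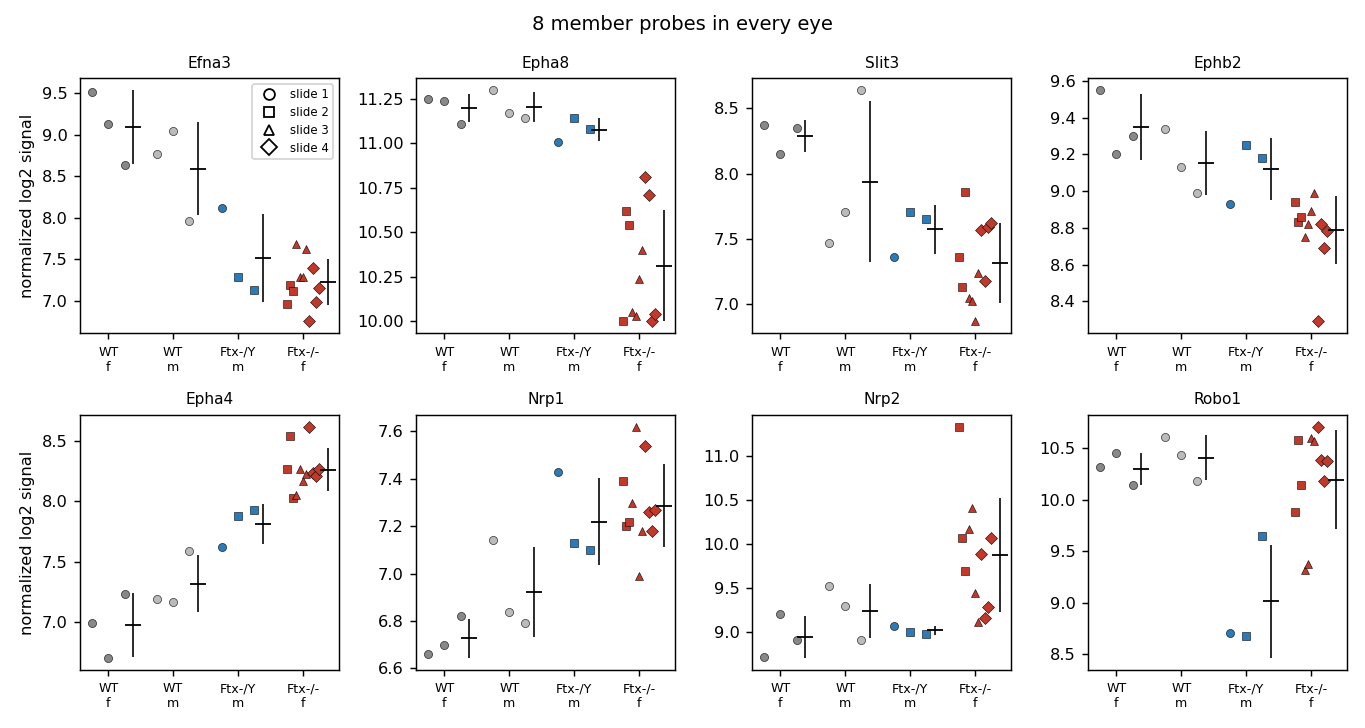
Log2 normalized signal (vertical axis) of 8 member probes in every eye of the 4 groups (horizontal axis), with the marker shape giving the slide and the bar the mean and SD of a group. The Ftx-/- eyes are all below the WT females for Efna3, Epha8, Slit3 and Ephb2 and all above them for Epha4 and Nrp1. Nrp2 ranges from 9.11 to 11.33 in Ftx-/- eyes, and the group mean of Robo1 is lowest in the Ftx-/Y eyes.

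Of the EphB receptor probes, which bind the transmembrane ephrin-Bs and help to order axons along the dorsal and ventral axis, 2 of 6 fell and 1 rose. Ephb2 had log2 signals of 9.55, 9.20 and 9.30 in WT females against 8.29, 8.82 and 8.99 as the lowest, median and highest of the Ftx-/- eyes. No Ftx-/- eye reached the WT range, and the log2 fold change was -0.56 (SE 0.12, adjusted p = 0.00184). The other fall was in Ephb6, a member without kinase activity. The rise was in Ephb3, read by a probe with the TG run: it was 13.64, 13.03 and 13.02 in WT females and 13.15 to 14.96 in the Ftx-/- eyes, for a log2 fold change of 0.97 (SE 0.27, adjusted p = 0.00958). Without WT female eye 2 or 4 the adjusted p of Ephb3 was 0.059 and 0.0516. Ephb1, which guides the axons that do not cross at the chiasm, differed by -0.02 (SE 0.15, adjusted p = 0.942).

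All 4 ephrin-B probes passed the test, 2 in each direction. Efnb2, a ligand of the dorsal retina, rose with probe 1 and fell with probe 2. Probe 1 had 12.27, 12.39 and 12.63 in WT females and 12.86, 12.95 and 13.18 as the lowest, median and highest of the Ftx-/- eyes, a log2 fold change of 0.56 (SE 0.08, adjusted p = 0.00013). Probe 2 had 8.0, 7.58 and 8.10 in WT females and 6.86, 7.53 and 7.77 in the same order, a log2 fold change of -0.50 (SE 0.17, adjusted p = 0.0294). The groups did not overlap with probe 1 and overlapped with probe 2, whose adjusted p was 0.134 without WT female eye 1 and 0.147 without eye 4. No direction is given for Efnb2 as a gene, since its probes disagree. Among the 12 genes with 2 or more tested probes it was the only one called in both directions, and 7 others had a called probe beside one that was not called.

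The X-linked ligand Efnb1 fell by 0.31 on the log2 scale (SE 0.09, adjusted p = 0.0155). It was 12.16, 12.24 and 12.32 in WT females and 11.69, 11.92 and 12.27 in the lowest, median and highest Ftx-/- eye, so that 10 of 11 Ftx-/- eyes were below the WT mean. Its adjusted p was 0.0561 without WT female eye 2 and 0.0779 without eye 4. The X-linked receptor Plxna3 differed by -0.17 (SE 0.15, 95% interval -0.48 to 0.14, adjusted p = 0.409), and the X-linked Plxnb3 was not tested. The remaining ephrin-B, Efnb3, rose by 0.23 (SE 0.09, adjusted p = 0.0479).

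The Slits, secreted ligands of the Robos, had 2 falls and no rise among 3 probes. Slit3 had 8.37, 8.15 and 8.35 in WT females. The lowest, median and highest of the Ftx-/- eyes were 6.87, 7.24 and 7.86, all below the WT females. The log2 fold change was -0.97 (SE 0.21, adjusted p = 0.00211). Slit1, which is made by retinal ganglion cells, was 11.02, 11.02 and 11 in WT females and 10.26 to 10.97 in the Ftx-/- eyes, for a log2 fold change of -0.44 (SE 0.12, adjusted p = 0.0081). Slit2, a paralogue in the retina, differed by -0.05 (SE 0.14, adjusted p = 0.807). The Robo receptors had 1 rise among 5 probes: one Robo2 probe rose by 0.32 (SE 0.11, adjusted p = 0.0366), while the brightest Robo2 probe differed by -0.33 (SE 0.14, adjusted p = 0.0713). Robo1 differed by -0.11 (SE 0.26, 95% interval -0.66 to 0.44, adjusted p = 0.784).

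The netrins had 2 tested probes, of Ntn3 and Ntn4, and neither passed the test. Ntn1, the netrin of the optic disc, was well above background on 2 of 3 arrays of each WT group with its brighter probe and so was not tested. Of 3 probes for Dcc, 1 fell: it was 8.33, 8.52 and 7.85 in WT females and 7.07 to 8.18 in Ftx-/- eyes, for a log2 fold change of -0.57 (SE 0.17, adjusted p = 0.0186; 0.0949 without WT female eye 1 and 0.141 without eye 2). The other two Dcc probes had values of opposite sign, 0.37 (SE 0.40, adjusted p = 0.511) and 0.64 (SE 0.31, adjusted p = 0.126). The former holds a GAA repeat and is placed by the files on chromosome 7, whereas the gene is on chromosome 18.

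Unc5 receptors had 1 rise and 1 fall among 4 probes. Unc5b, which also acts in blood vessels, was 12.03, 11.96 and 12.40 in WT females and 12.18 to 13.01 in Ftx-/- eyes, for a log2 fold change of 0.45 (SE 0.15, adjusted p = 0.0237). Unc5c, another repulsive netrin receptor, was 8.94, 9.0 and 8.64 in WT females and 8.11 to 8.76 in Ftx-/- eyes, for a log2 fold change of -0.40 (SE 0.13, adjusted p = 0.022). Both overlapped between groups, and neither passed without WT female eye 1 (adjusted p of 0.121 for Unc5b and 0.109 for Unc5c) or without eye 2 (0.136 and 0.125). Unc50 rose by 0.19 (SE 0.07, adjusted p = 0.0448).

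Both neuropilins rose. Nrp1, the coreceptor of Sema3a that also binds a vascular growth factor, was 6.66, 6.70 and 6.82 in WT females. Its lowest, median and highest values in Ftx-/- eyes were 6.99, 7.26 and 7.62. No Ftx-/- eye overlapped the WT females, and the log2 fold change was 0.56 (SE 0.12, adjusted p = 0.00245).

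Nrp2, the coreceptor of Sema3f, was 8.72, 9.20 and 8.91 in WT females and 9.11, 9.88 and 11.33 in the lowest, median and highest Ftx-/- eye. The Ftx-/- eyes covered a wide range, and the groups overlapped. The log2 fold change was 0.93 (SE 0.32, adjusted p = 0.0327), and the adjusted p was between 0.0572 and 0.15 when any one of the 3 WT female eyes was left out.

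Among the plexins, the signalling receptors of semaphorins, 2 of 11 probes rose and none fell. Plxna4 was 7.45, 7.69 and 7.97 in WT females and 7.97 to 8.54 in Ftx-/- eyes, so the groups met at 7.97 to the digits given. Its log2 fold change was 0.55 (SE 0.15, adjusted p = 0.0082, and 0.0875 without WT female eye 1). Plxna4 was the member that lost its sign with the slide in the fit, at -0.02. Plxna2 was 9.05, 9.32 and 9.06 in WT females and 9.22 to 9.90 in Ftx-/- eyes, for a log2 fold change of 0.37 (SE 0.11, adjusted p = 0.0116; 0.079 without WT female eye 1 and 0.0592 without eye 4). Its second probe, which the files place on another chromosome than the gene, differed by 0.37 (SE 0.21, adjusted p = 0.197). Plxna1 differed by -0.24 (SE 0.22, adjusted p = 0.425) and Plxnd1, a receptor of endothelial cells, by -0.07 (SE 0.15, adjusted p = 0.754).

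Of the secreted class 3 semaphorins, 1 of 5 probes fell. Sema3f fell by 0.19 (SE 0.07, adjusted p = 0.0468), in all 11 eyes, but the adjusted p was between 0.0532 and 0.138 without any one of 7 WT or Ftx-/Y eyes. Sema3a, the repellent that binds Nrp1, differed by -0.30 (SE 0.12, adjusted p = 0.0642).

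The membrane semaphorins had 6 falls and 2 rises among 16 probes. Sema4d, the ligand of plexin-B1, was 11.40, 11.53 and 11.11 in WT females and 10.39 to 11.32 in Ftx-/- eyes, for a log2 fold change of -0.57 (SE 0.16, adjusted p = 0.012; 0.0633 without WT female eye 1 and 0.0833 without eye 2). Sema6c, with one of its probes, was 9.89, 9.50 and 9.65 in WT females and 8.96 to 9.40 in Ftx-/- eyes, without overlap, a log2 fold change of -0.44 (SE 0.09, adjusted p = 0.00187). The brighter Sema6c probe differed by -0.16 (SE 0.10, adjusted p = 0.24), and its groups overlapped. Sema5b, one of the class 5 semaphorins that keep retinal neurites in their layer, fell by 0.45 with its brightest probe (SE 0.16, adjusted p = 0.0353; between 0.0637 and 0.149 without any one WT female eye). Its partner in layering, Sema5a, differed by 0.04 (SE 0.11, adjusted p = 0.833). The other falls were in Sema4a, Sema4g and Sema6b. The rises were in Sema4c and Sema4f. Sema4f was 6.35, 6.0 and 6.20 in WT females and 6.43 to 7.31 in Ftx-/- eyes, for a log2 fold change of 0.63 (SE 0.22, adjusted p = 0.0391; between 0.0751 and 0.163 without any one WT female eye). Sema6a differed by -0.12 (SE 0.16, adjusted p = 0.605).

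**Figure D3:**
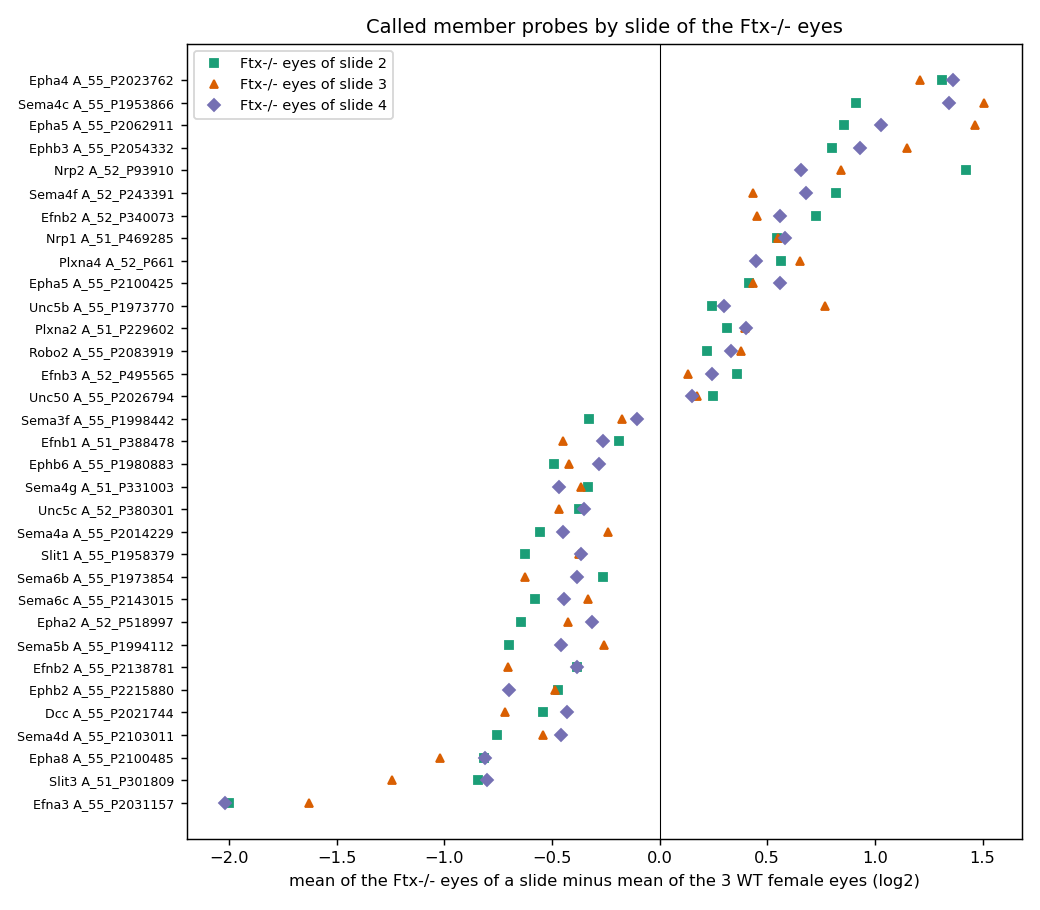
Mean of the Ftx-/- eyes of slide 2, 3 and 4 minus the mean of the WT females on the log2 scale (horizontal axis), as 3 markers for each of the 33 member probes called in females (vertical axis). For Efna3 they are -2.0, -1.63 and -2.02, and for Unc5b 0.24, 0.77 and 0.30. The 3 values of a probe share the WT eyes and the probes were chosen on the pooled difference, so a shared sign is no support.

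Within the Ftx-/- females, 10 member probes (13.2%) differed between slides at an adjusted p under 0.05, against 29.1% of all probes. Among them 3 were called between genotypes: Unc5b (adjusted p = 0.00393 between slides), Efnb2 probe 1 (0.00475), whose means lay 0.72, 0.45 and 0.56 above the WT females on slides 2, 3 and 4, and Sema4a (0.0458). For 6 uncalled probes, of Epha7, Ephb4, Robo3, Slit2, Sema6a and Plxna1, slide means lay on both sides of the WT females. Plxna1 differed most between slides (adjusted p = 0.000265), at -0.83, 0.18 and -0.20, and Slit2 was at -0.38, 0.21 and -0.07. With the slide as a term of the fit, the log2 fold changes that shrank by over 1.5 times were, beside that of Efna3, those of Unc5b (0.15), the second Epha5 probe (0.16), Plxna2 (0.16), Sema4f (0.26), the called Robo2 probe (0.12) and Efnb2 probe 2 (-0.33). Those of Nrp1 (0.86), Nrp2 (1.5), Unc5c (-0.66), Sema3f (-0.39) and Sema4a (-0.61) grew by over 1.5 times, and Plxna4 changed sign.

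The probes with the TG run behaved as a class. Sema4c was 14.15, 13.46 and 13.43 in WT females and 13.75, 15.08 and 15.77 in the lowest, median and highest Ftx-/- eye, a log2 fold change of 1.29 (SE 0.30, adjusted p = 0.00406). Sema6d, a ligand of plexin-A1 and -A4, had a log2 fold change of 0.95 (SE 0.37, adjusted p = 0.058). Of all 79 tested probes with a TG or GT run of at least 15 bases, 73 (92.4%) were higher in Ftx-/- than in WT females and none was lower, with a median log2 fold change of 1.14, and their median was 0.76 in males. Of the 41 probes with an AC or CA run, 27 (65.9%) were lower and none was higher, with a median of -1.37 in females and -1.12 in males. Among the 25102 probes with no simple repeat, 15.3% were higher and 15.3% lower.

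The 4 TG-run members also moved together from eye to eye. Over the 20 eyes their pairwise correlations lay between 0.901 and 0.989, although they read 4 different genes. The Epha5 probe with the run had a correlation of 0.644 with the second Epha5 probe and of -0.01 with the third. These correlations are a description over eyes that share arrays and slides. Sema4c, Ephb3 and Sema6d were each read by this 1 tested probe, and the part of the repeat in their values was not tested. With all repeat-bearing probes left out, an analysis chosen after seeing the data, 12 member probes were higher and 18 lower in females, of 71.

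**Figure D4:**
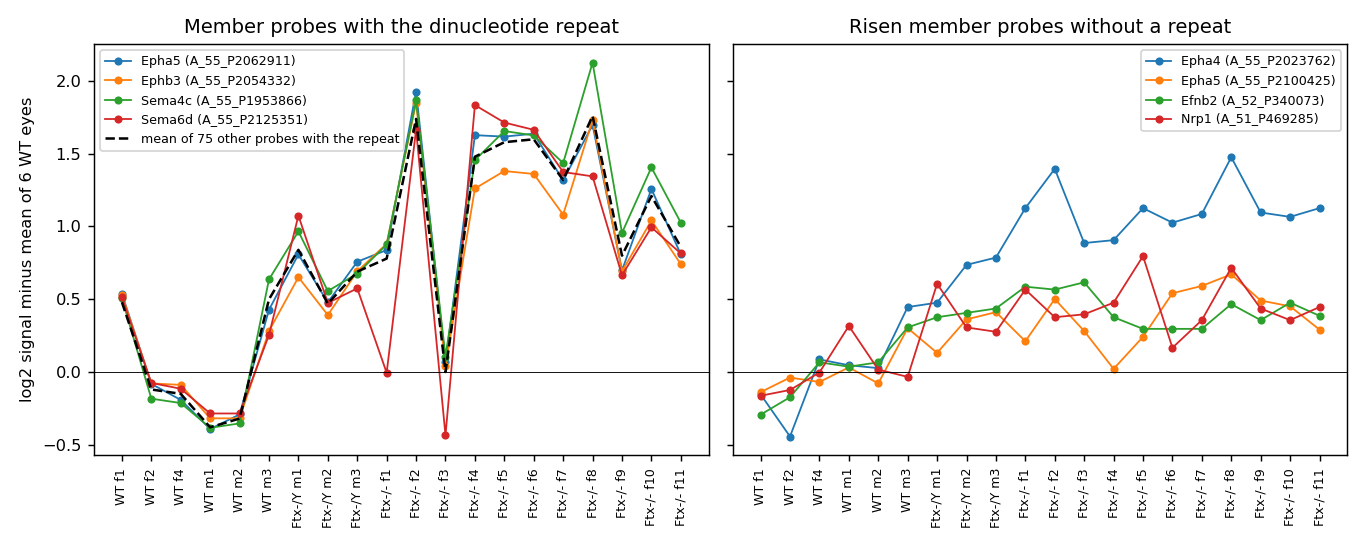
Log2 signal minus the mean of the 6 WT eyes (vertical axis) in each of the 20 eyes (horizontal axis), for the 4 TG-run member probes with the mean of the 75 other TG-run probes (dashed) and for 4 risen member probes without a repeat. Lines only connect the values. The TG-run probes rise and fall together, with pairwise correlations from 0.901 to 0.989. The 4 probes without a repeat are drawn beside them.

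In males, no member and no other probe passed an adjusted p under 0.05 (0% of all probes), and the lowest adjusted p of a member was 0.168. With the limits of the study's methods, 4 member probes (5.26%) had higher values in Ftx-/Y eyes and 3 (3.95%) had lower values, against 6.16% and 3.21% of all probes. The higher probes were those of Epha4, Ephb3, Efnb2 (probe 1) and Robo2, and the lower ones those of Robo1, Efna3 and Ephb4. At an unadjusted p under 0.05, 9 members and 3264 of all probes differed, and for 18 member probes (23.7%) the male groups did not overlap, as for 21.7% of all probes. The median log2 fold change was 0.06 over the members and 0.02 over all probes. The count of higher probes rested on single eyes, being 1 without WT male eye 2 and 9 without WT male eye 3. Without WT male eye 2 the log2 fold changes of Ephb3, Efnb2 probe 1, Robo2 and Ephb4 were 0.60, 0.24, 0.21 and -0.29, and these no longer met the limits. The calls were also lost without WT male eye 1 or Ftx-/Y eye 3 for Efnb2 probe 1, without Ftx-/Y eye 1 or 2 for Robo2, without Ftx-/Y eye 2 for Ephb4, and for Ephb3 without any one of 7 eyes, all Ftx-/Y eyes among them.

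Robo1, a Slit receptor, and Efna3 had the lowest log2 fold changes past the limits in males, with Robo1 the lower of the pair over all eyes and Efna3 (-1.38) below Robo1 (-1.24) without Ftx-/Y eye 1. Robo1 was 10.61, 10.44 and 10.18 in the WT males and 8.71, 8.68 and 9.65 in Ftx-/Y eyes 1, 2 and 3. The groups did not overlap, and the log2 fold change was -1.40 (SE 0.33, fold 0.38, unadjusted limma p = 0.000444, adjusted p = 0.168). The difference from the WT males was -1.70 for the eye that shared their slide and -1.24 for the pair on slide 2. In Ftx-/- females the same probe lay between 9.32 and 10.71 with a median of 10.38, near the WT females at 10.32, 10.45 and 10.14.

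Efna3 was lower in males too. It was 8.77, 9.04 and 7.96 in WT males and 8.12, 7.29 and 7.13 in the Ftx-/Y eyes, so that the groups overlapped by 1 eye. The log2 fold change was -1.07 (SE 0.30, unadjusted limma p = 0.00174, adjusted p = 0.192), with -0.47 for the eye on slide 1 and -1.38 for the eyes on slide 2. Epha4 was 7.19, 7.17 and 7.59 in WT males and 7.62, 7.88 and 7.93 in the Ftx-/Y eyes, without overlap. Its log2 fold change was 0.49 (SE 0.17, unadjusted limma p = 0.008, adjusted p = 0.251), with 0.30 for the eye on slide 1 and 0.59 for the eyes on slide 2. Efnb2 probe 1 was 12.60, 12.63 and 12.87 in WT males and 12.94, 12.97 and 13.00 in the Ftx-/Y eyes, a log2 fold change of 0.27 (unadjusted limma p = 0.0157). It was past the fold limit by a narrow margin, at a fold of 1.21. The others past the limits were Robo2 with 0.38, Ephb4 with -0.39 and the TG-run probe of Ephb3 with 0.70.

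The test of whether the genotype change differed between the sexes called no member and no probe (0% of all probes) at an adjusted p under 0.05. At an unadjusted p under 0.05, 18 members and 3256 of all probes differed, and the lowest adjusted p among the members was 0.195, for Epha4. Its change in females exceeded that in males by 0.80 on the log2 scale. For Efna3 the difference was -0.80 (adjusted p = 0.39), for Epha8 -0.77 (adjusted p = 0.234) and for Robo1 1.29 (adjusted p = 0.236). A larger effect in one sex is therefore not shown for any member.

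WT females and WT males did not differ in any member at an adjusted p under 0.05, and 0.0156% of all probes passed. At an unadjusted p under 0.05, 8 of 76 members and 2771 of 25573 probes did, a like share, with Ephb1 at -0.55 and an adjusted p of 0.312. Between Ftx-/- females and Ftx-/Y males, 3 members (3.95%) passed, against 0.993% of all probes. Epha8 was 11.01, 11.14 and 11.08 in the Ftx-/Y eyes, all above the highest Ftx-/- eye at 10.81, and the difference was -0.77 (SE 0.15, adjusted p = 0.0268). Robo1 was higher in Ftx-/- females by 1.18 (SE 0.26, adjusted p = 0.0384). Its groups overlapped, since Ftx-/- eyes 4 and 5, at 9.32 and 9.38, were below Ftx-/Y eye 3 at 9.65. Unc5b was 11.87, 11.96 and 11.97 in the Ftx-/Y eyes, below all Ftx-/- eyes, and higher in females by 0.66 (SE 0.15, adjusted p = 0.0382). Slide 2 held eyes of both groups, and there the differences were -0.73 for Epha8, 1.04 for Robo1 and 0.41 for Unc5b. None of the 3 passed when any one Ftx-/Y eye was left out (adjusted p from 0.0614 to 0.299). Without WT male eye 1 Robo1 and Unc5b were just short of the threshold (adjusted p of 0.051 and 0.0522), as was Robo1 without WT female eye 2 (0.0502).

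Transcripts of the proteins that carry the signal inside the cell were both higher and lower. Of 83 probes for 50 downstream genes, 12 (14.5%) rose and 20 (24.1%) fell in Ftx-/- females, against 15.4% and 15.3% of all probes, with a median log2 fold change of -0.03. The share of rises was near that of all probes. Nck1, an adaptor that couples receptors to actin, rose by 0.45 (SE 0.06, adjusted p = 7.2e-05). Rock1, a kinase that contracts the growth cone, rose by 0.85 with one probe (SE 0.13, adjusted p = 0.000195), and its other probe differed by 0.17 (SE 0.15, adjusted p = 0.417). Rac3, a small GTPase of the growth cone, fell by 0.54 (SE 0.09, adjusted p = 0.000478). Trio, an exchange factor that activates such GTPases, fell by 1.84 with one probe (SE 0.34, adjusted p = 0.000759) and rose by 0.34 and 0.41 with the other two, so it has no one direction. Without WT female eye 1 or 2, 13 and 20 of these probes passed. The downstream probe of Pak4 holds a TG run as well and rose by 1.16.

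Of 41 probes for other guidance and adhesion genes, 7 (17.1%) rose and 4 (9.76%) fell, shares near or below the 15.4% and 15.3% of all probes. Cxcl12, a chemokine that guides cells and axons, rose by 1.95 (SE 0.40, adjusted p = 0.00156) and 1.83 (SE 0.53, adjusted p = 0.0145) with its probes. Flrt3, an adhesion protein that binds Unc5 and Robo receptors, rose by 0.73 (SE 0.11, adjusted p = 0.000136) and 0.40 (SE 0.10, adjusted p = 0.00608) with 2 of its 3 probes. Ncam1, an adhesion molecule of axons, fell by 0.74 with one probe (SE 0.17, adjusted p = 0.00279) and differed by -0.05 (SE 0.11, adjusted p = 0.757) with the other. Nrcam, another adhesion molecule of axons, fell by 0.43 (SE 0.11, adjusted p = 0.00745).

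Markers of the cells that make up the eye were counted in females too, where 15.4% of all probes rose and 15.3% fell. Of 34 lens probes, 26 (76.5%) fell and none rose, with a median log2 fold change of -0.55. The log2 of their summed signal, in which bright probes weigh most, was 21.74 to 21.87 in WT females and 21.72 to 21.80 in WT males. It was 21.68 to 21.79 in Ftx-/Y males and 21.23 to 21.71 in Ftx-/- females. Of 10 mesenchyme probes, 6 (60%) rose and none fell (median 1.54). The log2 of their summed signal was 12.65 to 13.14 in WT females, 13.02 to 14.10 in WT males, 12.95 to 13.71 in Ftx-/Y males and 13.06 to 15.77 in Ftx-/- females. The mesenchyme markers Foxc2, Lmx1b, Prrx1 and Twist1 had no probe well above background on all WT arrays. The part of these shifts in the changes of Epha2, Slit3, Nrp2 and the other members was not tested.

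Of 24 probes for genes of retinal ganglion cells, whose axons answer to these cues, 3 (12.5%) rose and 7 (29.2%) fell. The log2 of their summed signal was 18.04 to 18.30 in WT females, 18.15 to 18.32 in WT males, 18.28 to 18.33 in Ftx-/Y males and 17.88 to 18.20 in Ftx-/- females. Of 19 retinal progenitor probes 3 rose and 2 fell. Pigment cell probes, of a layer removed at dissection, had 3 rises among 18 (16.7%), a share near that of all probes. The log2 of their summed signal spanned 14.81 to 14.96 in WT females and 14.63 to 16.20 in Ftx-/- females. It spanned 15.16 to 15.36 in WT males and 14.77 to 14.94 in Ftx-/Y males, which lay below the WT males. Endothelial probes had 1 fall among 13 (7.69%) and macrophage probes 3 rises among 13 (23.1%). Surface ectoderm probes had 1 rise and 1 fall among 7 (14.3% each), and muscle probes no call among 2. For 12 of 14 muscle genes, 5 of 12 surface ectoderm genes and 4 of 14 erythroid genes no probe was tested, so these lists were read only in part. In males 10 of 11 erythroid probes were past the limits of the methods and higher in Ftx-/Y eyes, as were 6.16% of all probes. The log2 of their summed signal was 19.44 to 20.19 in Ftx-/Y eyes against 19.00 to 19.29 in WT males. In females 3 of the 11 (27.3%) rose. Whether blood in the samples bears on the male values of Robo1 and Efna3 was not tested.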

How the data were processed

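For each spot, the authors deposited the 1-colour (Cy3) intensity after background subtraction by Agilent Feature Extraction (11.0.1.1 in the headers), with its flags, for 31 arrays. The value table of the series deposited by the authors holds the same intensities, not normalized (within 0.5% of the scanner values). Intensities of the 59305 probe spots were normalized here by quantile splines, the method named in the study's methods, written out in R 4.3.3 (100 samples, 5 iterations). Flagged spots were left out (120 non-uniform, 5639 apart from their copies), spots of a probe were averaged as log2 values, and so were the 2 arrays of an Ftx-/- eye (correlation 0.994 to 0.998). Probes well above background on all 6 WT arrays were kept, and a mean intensity above 500 in WT females was an alternative.

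Groups were compared with limma 3.58.1 (trend) in 1 fit over 20 eyes, and p-values were adjusted by the Benjamini-Hochberg method over 25573 probes, so every adjusted p is limma's. Females, sex comparisons and the difference between sexes used an adjusted p under 0.05, and males the limits of the study's methods. The fit was tested on simulated data. The number of eyes limits the precision (median SE over members 0.143 in females, 0.18 in males). The sources used here do not say which eyes share an embryo, so p-values measure the spread between eyes. A probe was repeat-bearing where a unit of 6 bases or fewer ran over 15 bases or more.

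Named members were those X-linked, those known in retinal mapping, optic disc exit and layering (by their brightest probe), the largest changes that went the same way in every mutant eye (10 each way in females, and up to 5 each way in males, where 4 rises and 3 falls qualified), those called between sexes, and genes with opposite calls. The members and all lists were chosen with earlier results of these data known. Alternatives changed the normalization, filter, array, test, threshold, block or eyes. Of the member probes, 91 matched a RefSeq accession (GRCm38.p6, used for names only), none with another symbol. Probe sequences and mm9 positions are the files'. Tables were read with the data.table package (version 1.17.8).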

Additional observations from a re-analysis of the deposited data

Results flagged for a closer look

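For 5 tested member probes every Ftx-/- eye lay to one side of the mean of the WT females and every Ftx-/Y eye to the other side of the mean of the WT males. The change in females minus that in males was -0.68 for Dcc (SE 0.28, limma adjusted p = 0.327), -0.87 for Efnb2 probe 2 (SE 0.27, adjusted p = 0.231), -0.58 for Sema4g (SE 0.18, adjusted p = 0.227), 1.16 for Nrp2 (SE 0.51, adjusted p = 0.361) and 0.45 for Plxna2 (SE 0.17, adjusted p = 0.295). None of these differences passed the test.

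Probes of Epha1 and Ntn1 were outside the tests because 1 array of each WT group was not well above background, and both were read in mutant eyes. Epha1 had a mean log2 signal of 5.75 in Ftx-/- females and was well above background on 17 of 22 of their arrays and on 3 of 3 Ftx-/Y arrays. Ntn1 had a mean of 7.10 in Ftx-/- females, on 22 of 22 arrays, and was also above background on 3 of 3 Ftx-/Y arrays. Groups of 3 and of 11 eyes were not searched for single eyes that stand apart.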

How the results depend on the processing

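Single members were recomputed under the alternatives that keep the call rule. Of 36 called values, 32 kept their direction under all of these, and 1, Robo1 in males, also stayed past the limits of the methods, though its adjusted p was 0.168. The reversals were Sema3f at 0.094 in the series table, Plxna4 at -0.0181 with slide as a fixed block, and Dcc (0.147) and Efnb2 probe 2 (0.0325) when the probes of a gene were averaged. The cause was not tested. The series table also moved the median of all probes to 0.18 in females and -0.13 in males. Below, falls and rises are counts of member probes in females, male falls and male rises those in males, mutant sex differences those between Ftx-/- and Ftx-/Y eyes, and downstream the called probes of the 83.

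The series table gave 2 falls, 12 downstream, 0 male rises and 0 mutant sex differences. A signal above 500 gave 20 downstream, 1 male rise, 5 mutant sex differences and 5 differences between slides. Only the groups compared gave 8 male rises and 0 mutant sex differences. Slide as a fixed block, where the male contrast is Ftx-/Y eye 1 alone against the WT males, gave 0 falls, 0 rises, 0 downstream, 1 male fall and 0 mutant sex differences (21 members and 3536 of all probes had an unadjusted p under 0.05 in females), and slide as a random block (correlation 0.318) gave 10 falls, 4 rises, 13 downstream, 7 male rises and 0 mutant sex differences. The methods' t-test after Benjamini-Hochberg adjustment gave 9 rises, 15 downstream, 0 male falls, 0 male rises and 7 mutant sex differences, and at its threshold 21 downstream, 1 male fall, 2 WT sex differences and 18 mutant sex differences. Fold limits of 1.5 and 0.67 with an unadjusted p under 0.05, in place of the adjusted p outside the male comparison, gave 3 falls, 7 rises, 1 male rise, 5 mutant sex differences, 11 differences of the genotype change between sexes and 13 downstream. The limits of the methods gave 5 WT sex differences, 19 mutant sex differences and 18 differences of the genotype change, and an adjusted p gave 0 male falls and 0 male rises. Ftx-/- eyes of slide 3 alone gave 28 falls, and those of slide 4 alone 11 falls and 21 downstream.

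With the replicate block there were 7 rises, 14 falls, 17 downstream, 2 male rises and 0 mutant sex differences. The replicate numbers share only a name, since the correlations of same-numbered eyes ran from -0.423 to 0.249 over 16 pairs. Leaving out each WT or Ftx-/Y eye gave 10 to 19 falls, 8 to 15 rises, 13 to 32 downstream, 2 to 4 male falls, 1 to 9 male rises, 0 WT sex differences, 0 to 3 mutant sex differences and 0 differences of the genotype change. Other results stayed within 1.5 times their count. A like count can come from other probes, as it did for the male rises with slide as a fixed block. Signal over background limits the precision of the dim probes.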
